A study of Mus musculus with 4 samples.

Results

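The regions described here are the H3K27me3 peaks on mouse chromosome 9, the autosome on which the list of irradiated cells was longest relative to that of control cells. The chromosome was selected on that ratio of peak numbers, and its members are the distinct intervals on chromosome 9 (mm10) in the peak lists of both libraries. Irradiated cells had 676 and control cells 273, together 949 of the 25957 peaks of the series. The series profiled GL261, a mouse glioblastoma cell line, by chromatin immunoprecipitation and sequencing (ChIP-seq) with an antibody against trimethylated lysine 27 of histone H3. Its groups were GL261 cells after radiation and GL261 control cells, each with 1 H3K27me3 library and 1 input library, 4 libraries in all. All were grown in the same serum-containing medium and fixed with formaldehyde. No source used here gives the dose of radiation, the time of harvest or the number of cells. Peak lists hold no expression values, so the identity of the line could not be set against marker levels. With 1 library a group nothing below has a replicate check. Intervals cover counting error only, and a mark on more cells cannot be told apart from more mark per cell. Nor can either be told apart from a difference between the libraries in sequencing depth or precipitation, since library totals are unknown.

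H3K27me3 is written by the methyltransferase Ezh2 or Ezh1 within Polycomb repressive complex 2, and it is known for keeping developmental and lineage genes silent. In differentiated cells and tumours it can sit on CpG-rich gene starts or spread as low, broad enrichment over whole genes and the ground between them. Narrow peaks called on a broad, low mark sample such ground rather than outline it. Mouse chromosome 9 carries clusters of olfactory receptor, matrix metalloproteinase and chemokine receptor genes, and kinases of the DNA damage response such as Atm, Atr and Chek1.

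The RefSeq promoters that a peak touched are shown first, since the starts of genes are where Polycomb is best known to act. On chromosome 9 a peak met 8 of 1916 promoter windows, each from 250 bases before to 50 after an annotated start. These 8 belonged to 7 genes, 5 of them long noncoding RNAs. The protein-coding ones were Fbxw26, an F-box and WD40 repeat gene, under an irradiated peak, and Omt2b, a gene known from maturing oocytes, under a control peak. Both sequences are from the RefSeq table for GRCm38.p6, the assembly of mm10, written 5′ to 3′ on the strand of the gene, with the bases inside the peak in capitals.
Fbxw26 (chr9:109746040-109746339, minus strand): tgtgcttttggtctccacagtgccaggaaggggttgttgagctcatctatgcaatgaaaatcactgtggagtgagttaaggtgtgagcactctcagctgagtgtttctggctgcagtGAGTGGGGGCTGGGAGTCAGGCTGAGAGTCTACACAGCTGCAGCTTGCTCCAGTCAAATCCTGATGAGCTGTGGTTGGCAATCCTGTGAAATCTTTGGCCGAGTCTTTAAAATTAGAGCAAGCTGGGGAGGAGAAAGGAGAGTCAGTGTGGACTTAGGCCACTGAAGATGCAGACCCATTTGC
Omt2b (chr9:78327780-78328079, plus strand): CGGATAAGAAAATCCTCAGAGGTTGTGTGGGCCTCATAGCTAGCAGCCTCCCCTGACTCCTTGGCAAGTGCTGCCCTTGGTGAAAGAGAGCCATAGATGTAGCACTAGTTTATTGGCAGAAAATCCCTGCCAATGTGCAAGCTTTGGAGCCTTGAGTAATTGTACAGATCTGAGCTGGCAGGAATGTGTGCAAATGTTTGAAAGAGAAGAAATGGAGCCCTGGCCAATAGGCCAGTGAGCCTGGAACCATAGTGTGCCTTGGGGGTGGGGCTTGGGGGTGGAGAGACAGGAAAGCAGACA
The irradiated peak at Fbxw26 (chr9:109745823-109746222) covered 183 bases of its window and rested on 12 reads. Its fold, the authors' enrichment at the summit over the local background, was 4.22, with a q of 0.0536. Control cells had a peak of 9 reads elsewhere in Fbxw26 (chr9:109739837-109740120), so the gene was marked in both lists. The control peak at Omt2b (chr9:78327726-78328172) covered all 300 bases, with 12 reads at a fold of 4.22 (q 0.115). The irradiated library had its own peak at Omt2b, just downstream of that window (chr9:78328156-78328455), with 13 reads at a fold of 4.74 (q 0.0119). Omt2b therefore carried a peak in both lists. These overlapped by their ends only, inside the gene and downstream of its start, which the control peak alone covered. Both printed windows held a single CG, the dinucleotide at which DNA is methylated (the letters CG read the same on both strands). The 8 windows with a peak held 1 to 7, with a median of 4.5, against a median of 8 over all windows of the chromosome. None of the 8 reached 10 CG, as 46.0% of the 1916 windows did and 43.5% of 32817 windows in the table for the whole genome.

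Most peaks lay far from any start. The summit was a median of 25757 bp from the nearest of 1916 annotated starts in irradiated cells and 29366 bp in control cells. Within 1000 bp of a start lay 13 irradiated peaks (1.92%) and 5 control peaks (1.83%). Among the 49 miRNA hairpins of the chromosome, Mir2136 (chr9:104426113-104426187) met the edge of an irradiated peak with 12 reads, and no other had a peak of either list within 2000 bp. The numbers for promoter windows, starts and hairpins have no value for other chromosomes or random positions beside them. They are therefore not read as a trait of these peaks.

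The ratio of irradiated to control peaks on chromosome 9 was 2.48 (95% interval 2.15 to 2.86), against 1.61 (1.57 to 1.65) over the rest of the series. This ratio is what singled out the chromosome, so it is a description and carries no test. Chromosome 11 came next with 2165 and 925 peaks, a ratio of 2.34 (2.17 to 2.53), and its interval overlapped that of chromosome 9, as did those of chromosomes 2, 7, 17 and 19. Chromosome 9 held 4.20% of the irradiated list and 2.77% of the control list. The peaks covered 256772 bp and 102997 bp, and were equally wide, with a median of 343 bp in irradiated and 344 bp in control cells.

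**Figure D1:**
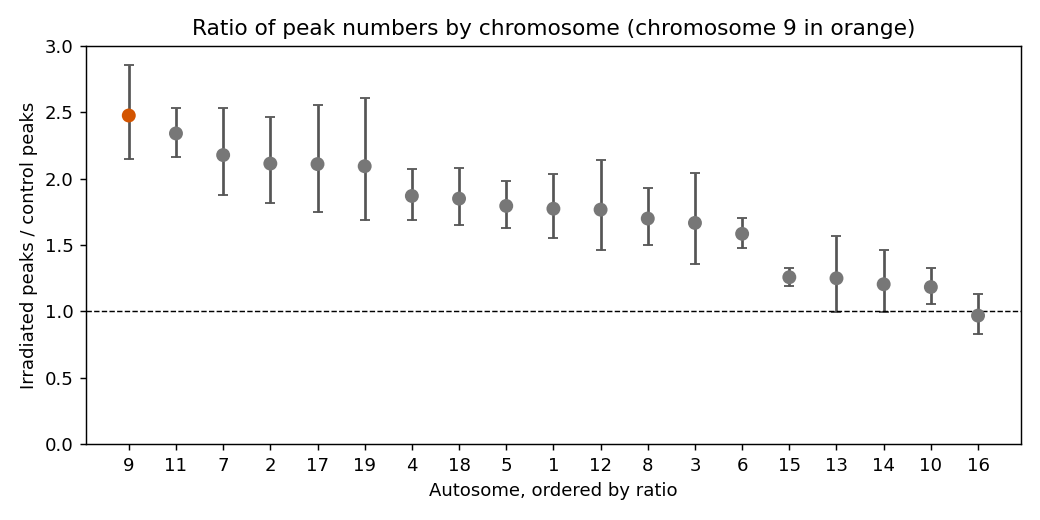
Irradiated peaks divided by control peaks for each of the 19 autosomes, ordered by ratio, with 95% exact intervals for counting error (bars) and a dashed line at equal numbers. Chromosome 9 (orange, 2.48) stands first and chromosome 16 last at 0.969; the intervals of chromosomes 9 and 11 overlap.

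The higher number in irradiated cells was most marked among the stronger peaks. Peaks with a q of at most 0.05 numbered 58 in irradiated and 3 in control cells, a ratio of 19.3 (6.30 to 96.5) against 3.56 on the other chromosomes together. With the limit set on p instead (−log10 p of 5 or more) there were 141 irradiated and 12 control peaks. That ratio was 11.8 (6.52 to 23.3) against 3.94 elsewhere. Both values for the other chromosomes include X, whose own ratio was 1.19 at the q limit and 1.24 at the p limit. Chromosome 9 ranked first among the 19 autosomes at either limit, with chromosome 19 next at 17.3 (5.61 to 86.8) and 10.6 (4.88 to 27.2). The intervals of chromosomes 19 and 11 overlapped that of chromosome 9 at both limits. The 3 control peaks at the q limit include a site of high background near the distal end, described below. These peaks are part of those whose ratio selected the chromosome, so the rank adds no support to it. When the irradiated list was cut to its 9866 strongest peaks, as many as the control list held, chromosome 9 kept 372 irradiated against 273 control peaks. That ratio was 1.36 (1.16 to 1.60), second to chromosome 11 at 1.40 (1.28 to 1.52).

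Reads at the summit, recovered from fold and p, were few in both libraries. The median was 10 reads (quartiles 9 and 12) for irradiated peaks and 9 (quartiles 8 and 10) for control peaks of chromosome 9, against 11 and 10 on the autosomes other than 9 and 11. Control peaks crowded at the least that was listed: 119 of 273 had 8 reads or fewer, as did 92 of 676 irradiated peaks. Of at least 12 reads were 208 irradiated peaks (30.8%) and 24 control peaks (8.79%). At the lowest background a peak was listed from 8 reads in the irradiated and 7 in the control library. A −log10 p of 5 took 11 reads in the irradiated and 12 in the control library there, and a q of 0.05 took 13 in each. The local background had a median of 0.81 scaled reads in irradiated and 0.918 in control cells. It was at the lowest value of its list for 44.4% of irradiated and 62.6% of control peaks on chromosome 9, against 37.4% and 48.5% on the autosomes other than 9 and 11. The part of these backgrounds in the ratio was not tested directly; among peaks at the lowest background it was 1.75 (1.45 to 2.13), from 300 irradiated and 171 control peaks.

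**Figure D2:**
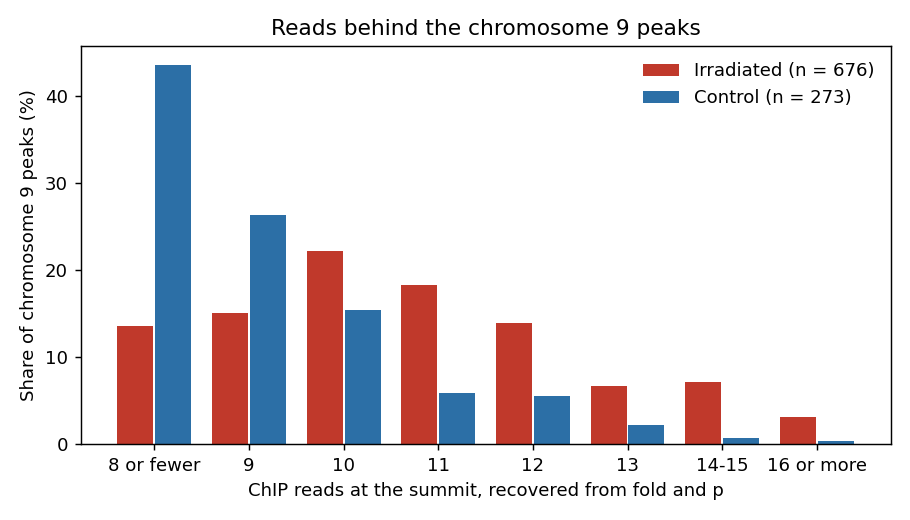
Share of the chromosome 9 peaks of each list (vertical axis, percent) by number of ChIP reads at the summit (horizontal axis; the first and the last classes are open and 14-15 holds a pair of values), irradiated in red and control in blue. Control peaks are most frequent at 8 reads or fewer (119 of 273), irradiated peaks at 10 reads (150 of 676).

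A single site stood apart from this range in both lists. Near the distal end of the chromosome, chr9:124256183-124258038 in irradiated and chr9:124256318-124258086 in control cells, the summit had 115 and 121 reads with folds of 4.98 and 4.75. Its local background was 12 scaled reads in the irradiated and 15 in the control library, far above the lowest, and no annotated gene lay there. Without it the highest peak of chromosome 9 had 21 reads in irradiated and 15 in control cells. The lowest q was then 0.000173 in irradiated cells, at chr9:69695269-69695633 outside any annotated gene, and 0.00198 in control cells, at chr9:37589143-37589587, also outside genes.

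The lists rarely named the same site. An overlap of 1 bp or more joined 28 pairs, which is 4.14% (2.77 to 5.93) of the irradiated and 10.3% (6.92 to 14.5) of the control peaks. On chromosome 11 the shares were 9.15% and 21.4%, and on the other autosomes 13.3% and 20.4%, so chromosome 9 lay below both, with intervals that did not overlap theirs. Its peaks were also sparser, at 5.57 irradiated and 2.25 control peaks per Mb, against 17.8 and 7.59 on chromosome 11 and 5.87 and 3.79 on the other autosomes, and the part of this in the overlap was not tested. At a wider reach the lists met more often: 181 irradiated peaks (26.8%) lay within 10 kb of a control peak and 128 control peaks (46.9%) within 10 kb of an irradiated one, and within 100 kb 72.9% and 82.4%. Within the 28 pairs the fold was higher on the irradiated side in 24, and the quotient of both had a median of 1.13 (quartiles 1.04 and 1.24). The lowest listed folds at the lowest background, 3.19 in the irradiated and 2.78 in the control list, differ in the same direction. Reads of the pairs had a median of 10 in the irradiated and 9 in the control list. In some pairs the irradiated fold was higher with equal or fewer reads. At the site with 115 irradiated and 121 control reads the folds were 4.98 and 4.75, over backgrounds of 12 and 15 scaled reads. The part of listing limits, background and read scale in the higher folds was not tested. A gene lay at or within 2000 bp of 14 pairs, and Rora held 4 of them.

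In bins of 1 Mb the lists followed each other along the chromosome. The Spearman correlation of peak numbers over 122 bins was 0.717, against 0.808 on chromosome 11 and 0.765 over all autosomes. It is a description, since bins share library, mappability and neighbours. Irradiated peaks were more numerous in 65 bins (53.3%), control peaks in 21, and 36 were equal, 26 of them empty in both lists. Bins with more irradiated peaks made up 70.5% on chromosome 11 and 39.6% of 2452 bins over all autosomes. On chromosome 9 the 10 fullest bins of each list held 37.0% of the irradiated and 30.0% of the control peaks.

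The excess of irradiated peaks lay mainly in the middle of the chromosome. From 40 to 50 Mb there were 129 irradiated and 37 control peaks, a ratio of 3.49 (2.40 to 5.17), from 50 to 60 Mb 113 and 36, and from 60 to 70 Mb 158 and 50. From 30 to 40 Mb the numbers were 70 and 26. Outside them peaks were fewer and ratios lower, but for 4 irradiated and 1 control peaks in the first 10 Mb. The next windows held 23 and 14 peaks (10 to 20 Mb) and 24 and 10 (20 to 30 Mb). Distally there were 29 and 17 from 70 to 80 Mb, 6 and 5 from 80 to 90 Mb, 27 and 20 from 90 to 100 Mb, 45 and 27 from 100 to 110 Mb, 11 and 8 from 110 to 120 Mb, and 37 and 22 beyond. The stretch from 30 to 70 Mb, picked after the values were seen, held 470 irradiated and 149 control peaks, or 69.5% and 54.6% of the chromosome, at a ratio of 3.15 (2.62 to 3.82). The rest held 206 and 124, a ratio of 1.66 (1.32 to 2.09), where the series without chromosome 9 had 1.61. These are not like for like. The stretch was set apart for its high ratio, which lowers that of the rest, and no stretch was set apart on the other chromosomes. By that limit on p the stretch had 95 irradiated and 3 control peaks, and the rest 46 and 9. In lists of equal length the stretch had 256 and 149 peaks and the rest 116 and 124. The median background of irradiated peaks was 0.824 scaled reads within the stretch and 0.704 outside it, and that of control peaks 0.918 in both; its part in the difference was not tested.

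The fullest bin was 58 to 59 Mb, with 35 irradiated and 4 control peaks. It holds 15 protein-coding genes, 5 of them with an irradiated and none with a control peak. Rec114, needed for the DNA breaks of meiotic recombination, had 5 irradiated peaks, Tbc1d21 2, and Insyn1, a gene of inhibitory synapses, 1. Stra6, the gene of the cell-surface receptor that takes up vitamin A, and Ccdc33 overlap each other; 4 peaks were counted at each, and they share the strongest (chr9:58098865-58099185, 14 reads). The bin from 43 to 44 Mb, with Pou2f3, had 30 irradiated and 2 control peaks. The bin from 45 to 46 Mb, which holds the adhesion genes Jaml, Mpzl2, Mpzl3 and Dscaml1 and the T cell receptor component gene Cd3e, had 27 and 2. Between 61 and 62 Mb stood 24 irradiated and 4 control peaks, as also from 64 to 65 Mb, and between 62 and 63 Mb, with the collagen-binding integrin gene Itga11, 23 and 3. In the bin from 69 to 70 Mb, within and beyond Rora, the lists were closer, with 23 and 12 peaks. From 32 to 33 Mb, which holds the potassium channel genes Kcnj1 and Kcnj5 and the ETS factor gene Fli1, they had 22 and 7. The reverse order was rare and small: the widest control excess, looked up afterwards, was 3 peaks. It was found in 4 gene-poor bins, with 0 irradiated and 3 control peaks from 16 to 17 Mb and again from 52 to 53 Mb, 1 and 4 from 25 to 26 Mb, and 4 and 7 from 41 to 42 Mb. The bins at 41 and 52 Mb lie within the stretch from 30 to 70 Mb.

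**Figure D3:**
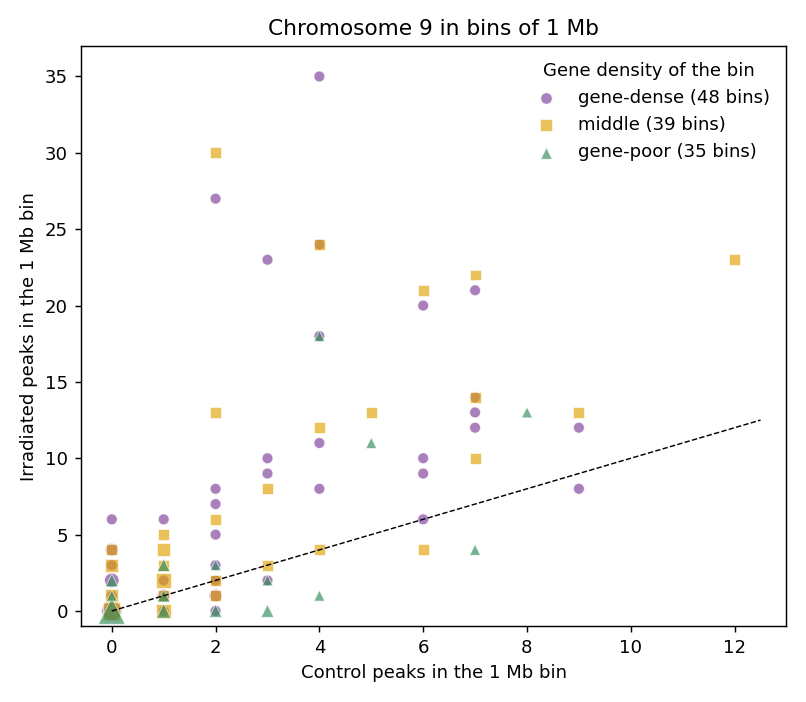
Each marker is a combination of irradiated (vertical axis) and control (horizontal axis) peak numbers in a 1 Mb bin of chromosome 9, larger where several bins share it; shape and colour give the gene density, and the dashed line marks equal numbers. Of the 122 bins 65 lie above the line, up to 35 irradiated and 4 control peaks, and 21 below it.

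The ratio was higher in gene-dense than in gene-poor bins. The 1 Mb bins of all autosomes were put in 3 classes by their number of protein-coding genes: 10 or more (gene-dense), 4 to 9 (middle) and 0 to 3 (gene-poor). In the 48 gene-dense bins of chromosome 9 there were 353 irradiated and 125 control peaks, a ratio of 2.82 (2.30 to 3.49). The 39 middle bins had 258 and 98, a ratio of 2.63 (2.08 to 3.36). The 35 gene-poor bins had 65 and 50, a ratio of 1.30 (0.885 to 1.92) whose interval includes 1. That value depends on how the bins are classed: with density by bp in genes it was 2.07 (1.32 to 3.31), with classes of equal size on chromosome 9 alone 1.81 (1.36 to 2.42), and with lists of equal length 0.66 (0.412 to 1.05). With the classes set on chromosome 9 alone the middle bins, at 2.76, were no lower than the dense ones, at 2.73. Under these settings gene-dense bins stayed above gene-poor ones, with overlapping intervals by bp in genes and with the classes of chromosome 9 alone. Irradiated peaks thus stood at 7.35, 6.62 and 1.86 per bin in dense, middle and poor bins, and control peaks at 2.60, 2.51 and 1.43. Across the bins the number of genes correlated at 0.339 (Spearman) with irradiated and 0.163 with control peak numbers, again as a description over 122 bins.

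On the autosomes other than 9 and 11 the order was the same and the ratios were lower, at 2.19 (2.09 to 2.29) in gene-dense, 1.41 (1.35 to 1.47) in middle and 0.924 (0.864 to 0.988) in gene-poor bins. Chromosome 11 had 2.94 (2.64 to 3.28), 1.86 (1.63 to 2.13) and 1.49 (1.18 to 1.87), above chromosome 9 in dense and poor bins and below it in middle bins, with intervals that overlap in all 3 classes. Chromosome 9 has more gene-dense bins (39.3% of its bins against 29.2% on the autosomes other than 9 and 11). Its own control peaks, with the ratios of those autosomes in each class, would give 457 irradiated peaks and a ratio of 1.67. Found were 676 and 2.48. Those autosomes themselves had a ratio of 1.55, or 1.68 without chromosomes 6 and 15, and with the latter set the numbers would be 469 and 1.72. With the ratios of chromosome 11 they would be 624 and 2.28. The part of gene density in the ratio of chromosome 9 was not tested. The chromosome differed most from the other autosomes in bins of middle density, where the intervals did not overlap. In gene-dense bins they were just apart, and in gene-poor bins they overlapped. Within the stretch from 30 to 70 Mb the dense, middle and poor bins had ratios of 3.80, 3.21 and 1.48, and outside it 1.77, 1.83 and 1.09.

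**Figure D4:**
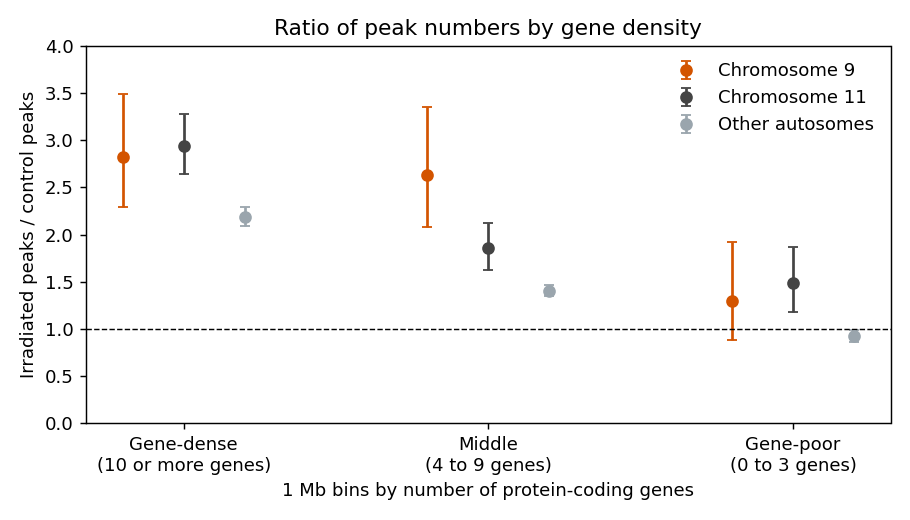
Irradiated peaks divided by control peaks in 1 Mb bins of high, middle and low gene number, for chromosome 9 (orange), chromosome 11 (black) and the other autosomes (grey), with 95% exact intervals for counting error and a dashed line at 1. Each set is lowest in gene-poor bins, on chromosome 9 with ratios of 2.82, 2.63 and 1.30.

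Seen by single peaks, a larger share of the irradiated list lay in genes, here as on the other autosomes. Inside a protein-coding gene lay 292 irradiated peaks (43.2%, 39.4 to 47.0) and 97 control peaks (35.5%, 29.9 to 41.5), whose intervals overlap. Such genes take up 45.7% of the annotated span of the chromosome. Outside any annotated gene lay 44.5% of irradiated and 55.7% of control peaks, against 46.9% of the span. The shares inside protein-coding genes were 42.1% and 37.0% on chromosome 11, and 35.1% and 29.8% on the autosomes other than 9 and 11.

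By gene, 111 of the 1201 protein-coding genes of chromosome 9 (9.24%) had an irradiated peak inside the gene or less than 2000 bp away, and 66 (5.50%) a control peak. Over all 21887 protein-coding genes the shares were 8.20% and 6.05%. An irradiated peak and no control peak was found at 66 genes, 5.50% against 4.53% of all genes. A control peak alone was found at 21, 1.75% against 2.38%, and peaks of both lists at 45, 3.75% against 3.67%. The shares of marked genes were thus near those of the whole genome. On chromosome 9 51 genes had at least 2 irradiated and 18 at least 2 control peaks, and 17 and 2 had at least 5. The genes with peaks of both lists made up 40.5% of those with an irradiated and 68.2% of those with a control peak. Over all protein-coding genes these shares were 44.8% and 60.6%, and on chromosome 11 46.9% and 71.7%. Irradiated peaks were more numerous at 27 of the 45 such genes of chromosome 9, control peaks at 6. At 11 of the 45 an irradiated and a control peak overlapped; at the others the lists marked different places. Marked genes were long, which gives them more room: a median of 106 kb with peaks of both lists, 32.3 kb with irradiated and 49.5 kb with control peaks alone, against 16.8 kb for the 1069 genes without any.

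Long genes between 42 and 70 Mb collected the most peaks. Megf11, which encodes an EGF-repeat membrane protein that spaces retinal neurons (chr9:64385617-64714179), held 20 irradiated and 2 control peaks. The irradiated ones had 8 to 16 reads and folds of 2.47 to 4.76, the control ones 9 and 13 reads and folds of 3.43 and 3.74. Thsd4, which encodes a microfibril-binding relative of the ADAMTS proteases (chr9:59966931-60522113), held 19 and 5. Its irradiated peaks had 8 to 15 reads and its control peaks 7 to 10. Rora, the gene of a nuclear receptor of cerebellar Purkinje cells and the circadian clock (chr9:68653404-69388246), held 19 and 12. Its folds ranged from 2.55 to 5.46 in irradiated and from 2.64 to 4.08 in control cells, and its strongest peaks lay apart, at chr9:68788753-68789042 and chr9:69004823-69005164. Per 100 kb of gene with its 2000-bp flanks, Rora had 2.57 irradiated and 1.62 control peaks and Megf11 6.01 and 0.601. The lists were thus closer in number at Rora than at Megf11.

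Tmem266, which encodes a voltage-sensing membrane protein (chr9:55326913-55438345), had 13 irradiated peaks with 8 to 14 reads and 1 control peak with 8. Grik4, a kainate receptor subunit gene (chr9:42518182-42945000), had 12 with 9 to 15 reads and 1 with 10. Few of these single peaks were strong: those with a q of at most 0.05 numbered 2 of 20 at Megf11, 1 each at Rora, Thsd4 and Tmem266 and 0 at Grik4 in irradiated cells, and 0 at all 5 genes in control cells.

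**Figure D5:**
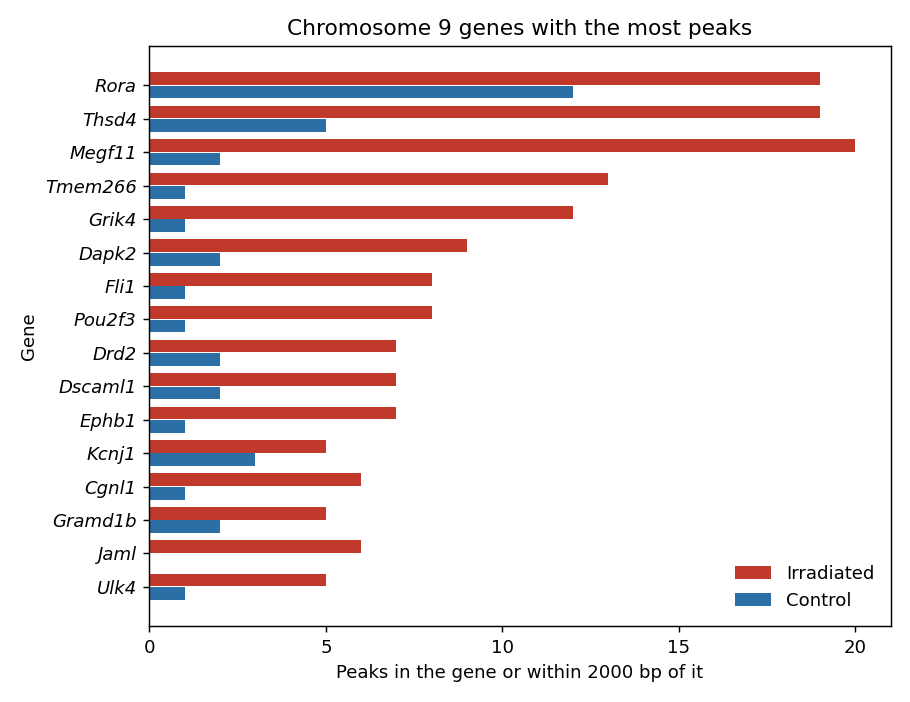
Number of peaks per gene, its 2000-bp flanks included (horizontal axis), for the 16 named protein-coding genes of chromosome 9 with the most peaks of both lists together, irradiated in red above control in blue. Every gene shown has more irradiated than control peaks, from 19 and 12 at Rora to 6 and 0 at Jaml.

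The strongest peaks at genes marked in irradiated cells alone were at Chrna5 and Jaml. Chrna5, a nicotinic acetylcholine receptor subunit gene (chr9:54980827-55011420), had a single peak at chr9:54991803-54992150 with 16 reads over the lowest background. Its neighbour Chrna3, of the same receptor family, had 1 irradiated peak with 15 reads over a raised background of 2 scaled reads (fold 3.10, q 0.214). Jaml, which encodes an adhesion molecule of leukocytes (chr9:45079153-45108531), had 6 irradiated peaks with 10 to 16 reads, a density of 18.0 per 100 kb. Mpzl3, its neighbour and a gene of an immunoglobulin-like membrane protein of skin, owed its mark to a peak outside the gene, at chr9:45077867-45078297, that is also counted for Jaml. Next by q came Rec114 (14 reads, q 0.0119), Igdcc3, a gene of the DCC family of neural receptors (15 reads, q 0.0157), and the homeobox gene Barx2 (15 reads, q 0.0179). BC049352 (14 reads, q 0.0198), the heart and brain potassium channel gene Kcnj5 (17 reads, q 0.0326) and Bsn, the gene of the presynaptic scaffold bassoon (19 reads, q 0.0496), followed. The reads of Kcnj5 and Bsn stood over backgrounds of 1.54 and 2 scaled reads. Ankrd34c closed the 10 with 12 reads and a q of 0.0536.

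Genes marked in control cells alone had weaker peaks. Spink8, of a family of serine protease inhibitors (chr9:109812203-109826628), led with 12 reads at a fold of 4.40 (q 0.0823), so that none of the 21 reached a q of 0.05. Arpp21, which encodes a phosphoprotein of striatal neurons, Fbxw24, a relative of Fbxw26, and Npsr1, the receptor gene for neuropeptide S, each had 1 peak of 10 reads with a fold of 3.75. Myzap, a gene of the heart's cell junctions, had 2 peaks, the stronger of 10 reads and a fold of 3.60, all 4 genes with a q of 0.385. The helicase gene Ddx43, the atypical cadherin gene Fat3 (2 peaks), A4gnt of gastric mucin synthesis and the small GTPase gene Rab39 had 9 reads and a q of 0.831 at their strongest peak, and the forkhead gene Foxr1 11 reads and a q of 0.951. A gene without a listed peak can still carry the mark below the threshold of its list.

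Among genes marked in both lists Ulk4, a pseudokinase gene (chr9:120964454-121286159), ranked first by the q of its weaker list. Rora, Thsd4 and Slc6a20a had a lower q in irradiated cells, 0.00171 each. Ulk4 held 5 irradiated peaks and 1 control peak, with lowest q of 0.00357 in irradiated and 0.0519 in control cells. The control peak, chr9:121235355-121235961 with 13 reads, overlapped an irradiated peak of 11 reads, chr9:121235332-121235984. Omt2b and Megf11 came next. Dscaml1, a neural adhesion gene, held 7 and 2 peaks with folds of 4.31 and 4.08 at the strongest, which lay at different sites. Exph5, an effector of vesicle transport, had 1 peak in each list, with 11 and 10 reads. The neuronal adhesion genes Kirrel3 (2 and 3) and Ntm (3 and 2) and the glycerol channel gene Aqp9 (1 and 2) were nearly even.

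Marked members were also counted by gene group, without regard to gene length, and marked genes were longer than unmarked ones. Over all protein-coding genes the shares to compare are 8.20% with an irradiated and 6.05% with a control peak. Of 18 developmental transcription factors 6 had an irradiated and 3 a control peak. Rora led, Fli1 held 8 and 1 peaks, and Pou2f3, the factor of chemosensory tuft cells, also 8 and 1. Barx2 had 3 irradiated peaks, and Zbtb16 and Onecut1 1 each, with q of 0.915 and 0.857. The other 12, among them the known Polycomb targets Zic1, Zic4, Eomes, Foxl2, Foxb1 and Tbx18, had no peak in either list. None of the 6 had a peak of either list at its RefSeq promoter window.

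Of 10 neurotransmitter receptor genes 5 had an irradiated and 3 a control peak. Drd2, the dopamine D2 receptor gene, held 7 irradiated peaks and 2 control peaks, with 12 and 9 reads at the strongest, and the serotonin receptor gene Htr3b 1 in each list. Ion channel genes had 3 and 1 of 12: Kcnj1, of the renal potassium channel, held 5 and 3 peaks, and Kcnj5 and the sodium channel subunit gene Scn4b 1 and 0 each. Of 20 genes for neural adhesion and guidance 7 and 4 were marked. Lingo1, an inhibitor of myelination, had 3 irradiated peaks and no control peak, and Opcml, with a length of 1135 kb, had only 1 in each list.

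Leukocyte genes had 7 marked members of 14 in irradiated and 2 in control cells. The 7 include Jaml and its neighbours Mpzl2 and Mpzl3, of which neither is particular to leukocytes, and the only peak counted at Mpzl3 is shared with Jaml. The T cell receptor components lie side by side: Cd3g held 1 irradiated and 3 control peaks, and Cd3d and Cd3e 1 and 0 each, the peak of Cd3d being that of Cd3g. Pou2af1, of B cell activation, had 1 in each list. Among 15 chemokine receptor genes Ccr1l1 alone had a peak, 1 in irradiated cells with a q of 0.149. Of 5 collagen genes 3 and 2 were marked. Col6a4 and Col6a5 held 2 irradiated peaks and 1 control peak each, and Col6a6 2 and 0. Of 8 genes of cytochrome P450 and glutathione transferase enzymes Gsta2 and Cyp19a1, which makes estrogens, each had 1 irradiated peak, with q of 0.537 and 0.915.

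No peak of either list met the remaining groups. They were the 16 genes of the DNA damage response and repair, with Atm, Atr, Chek1, H2ax and Mre11a, the 10 matrix metalloproteinase genes, the 4 apolipoprotein genes of the Apoa1 cluster and the 130 olfactory receptor genes. Over all protein-coding genes 8.20% had an irradiated and 6.05% a control peak, so an empty group of 4, 10 or 16 genes is not a contrast. The 130 olfactory receptor genes were likewise counted without regard to gene length, whose part in their lack of peaks was not tested. The median number of peaks per gene was 0 in either list for all 12 groups but 3, as it was over the 1201 genes of the chromosome. Leukocyte and neurotransmitter receptor genes had medians of 0.5 irradiated and 0 control peaks, and collagens 2 and 0. The groups were chosen with earlier results of these data known and are given as counts.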

How the data were processed

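Per the labels' protocols, fixed chromatin was sonicated, precipitated with an H3K27me3 antibody and sequenced as pairs of 150-bp reads. BWA, deepTools and build mm10 are named in the submitters' processing notes. No source used here states how peaks were called or whether input entered. The authors deposited 1 peak list per H3K27me3 library, and the input libraries were not used here. Positions, in bp, are as deposited. Each deposited line also holds a score (10 times the −log10 p without decimals) and a ratio (fold at the summit over local background). It further holds a −log10 p-value and q-value, and all these values are the authors'. Fold, p and q were also set side by side between the lists as deposited, without being brought to a common scale.

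Lines with a further summit of the same interval (679 irradiated, 215 control) were merged, keeping the strongest. Reads and background were recovered from fold and p with a Poisson model that the labels do not name; 100% of lines were solved within 0.001 on the −log10 p scale, and 0.286% of irradiated and 0.00992% of control lines had more than 1 solution. A ChIP read counted as 0.554 and 0.620 scaled reads, the lowest backgrounds being 0.704 and 0.918. The step was tested on simulated data. Library totals are unknown. Peaks were placed in 1 Mb bins by midpoint, and genes and promoters taken from RefSeq (GRCm38.p6). Exons and introns were not resolved, and no genome sequence of peaks was used. Intervals are exact (Clopper-Pearson, 95%), for a ratio by way of the share of summed counts, with Python 3.11.15 and scipy 1.17.1. No test between conditions was made.

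Members, gene lists and tests were chosen with earlier results of these data known. Named genes, without Gm and Rik names, are the 10 with the lowest q in irradiated cells alone, control cells alone and both (there by the weaker list), the 5 with the most peaks, and up to 4 marked members of each of 12 lists. Others named complete a list or a bin, or appear in the plot of genes, and were chosen after their values were seen. Bins named are the 5 with the most peaks and the 5 with the largest difference, ties by position; 64 to 65 Mb ties with the last 2. Alternatives were stricter limits, equal list lengths, merged peaks, other overlaps, bins, density classes and gene windows.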

Additional observations from a re-analysis of the deposited data

How the results depend on the processing

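Of 52 alternative values 22 stayed within the counting interval (for gene numbers, within 1.5 times) and 1 reversed. The irradiated-to-control ratio was 19.3 at a q of at most 0.05, 11.8 at a −log10 p of at least 5 and 1.36 with lists of equal length. It was 2.13 with peaks merged within 5000 bp and 1.75 at the lowest background. Without 30 to 70 Mb, an alternative added after seeing the data, it was 1.66. That stretch was left out for its high ratio, so a lower value follows from the choice. Requiring 50% overlap of both peaks left 2.37% of irradiated and 5.86% of control peaks shared, and of the 3 control peaks with a q of at most 0.05 33.3% overlapped. Bins with more irradiated peaks made up 41.2%, 69.4% and 88% at widths of 0.5, 2 and 5 Mb, and the correlation between the lists was 0.825 and 0.917 at 2 and 5 Mb; at a q of at most 0.05 these were 26.2% and 0.115. At that q the ratio in gene-dense bins was 13.3, and the other classes had no control peak and gave no value. With lists of equal length it was 1.59 in dense, 1.43 in middle and 0.66 in poor bins, so the order of the lists reversed there; with classes of equal size on chromosome 9 alone it was 2.73, 2.76 and 1.81. In gene-poor bins it was 2.07 with density by bp in genes and 2.01 with 2 density classes, where poor bins include part of the middle class. Genes in the irradiated list alone, the control list alone and both numbered 21, 4 and 3 with gene ends in place of genes, and 26, 0 and 0 at a q of at most 0.05. With lists of equal length 42 were in the irradiated list alone and 32 in the control list alone. The other causes were not tested. With 7 or 8 reads enough for a listed peak, single sites are imprecise. No paired analysis was possible because each condition has 1 library.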
